A study of Mus musculus with 2 samples.

Results

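Connexins are the protein subunits of gap junctions, and 7 connexin genes (Gja1, Gja4, Gja5, Gjb2, Gjb5, Gjb6 and Gjc1) are described here in cultured mouse fibroblastic reticular cells (FRCs). They were taken by symbol from the probe annotation, they are 7 of 19751 named genes, and each had 1 probe set of its own. They were chosen with their values on these arrays known, so their levels and differences are given as a description, without a test. For comparison, 9 other connexin genes with a probe set of their own were taken, which gives 16 connexin genes in all.

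The study holds 2 microarrays of 1 group, called replicate 1 and replicate 2. The lymph nodes were those of C57BL6/J mice, untreated and 4 to 6 weeks old, and their stromal cells were expanded in αMEM and 10% fetal calf serum over 7 to 10 days. FRCs are the fibroblasts that build the scaffold of lymph nodes, and how they were purified is not stated in the labels. No transgene, drug or second condition is named, nor whether each replicate had its own animal or culture, so their spread may be technical only. The labelled cell type was checked against 8 FRC markers (Pdpn, Pdgfra, Pdgfrb, Thy1, Vcam1, Ltbr, Cxcl12 and Ccl19). All 8 passed the first background limit described below on both arrays, as did 67.3% of all named genes, and 7 passed the stricter limit, as did 47.7%, the exception being Ccl19 (8.17 and 7.85 on replicates 1 and 2). Of 6 leukocyte markers, 2 passed the first limit, Csf1r (7.66 and 7.54) and Cd3e (7.58 and 7.60), and 0 the stricter one, with the pan-leukocyte gene Ptprc at 6.41 and 6.47 and a summed intensity of 748.6 and 724.6.

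Connexins span the cell membrane and assemble into rings, and a ring docks with one of a touching cell to form a channel for ions, metabolites and small messengers. A ring that stays undocked can open to the outside and release ATP. Different connexins make channels of different selectivity, and not all of them dock with each other. Connexin 43, the product of Gja1, is the common connexin of fibroblasts, and has been described in stromal cells of lymphoid tissue. Connexin 45 (Gjc1) occurs in conducting tissue of the heart and in smooth muscle, connexins 37 and 40 (Gja4 and Gja5) in vascular endothelium, and connexins 26, 30 and 31.1 (Gjb2, Gjb6 and Gjb5) in epithelia, epidermis or the cochlea. Gjb2 and Gjb6 are known as deafness genes.

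The stretches of 250 bases before the annotated start of 4 members are shown because the results turn on these genes. Gja1 and Gjb5 passed the first background limit described below on both arrays, and Gja1 also the stricter one. Gjb2 separated the arrays, and Gjb6, its neighbour on chromosome 14, stayed at background. Sequences and starts are from RefSeq, build GRCm38.p6, in which 6 of the 7 members were matched. Capitals mark matches on either strand to the GC box GGGCGG, the TATA box TATAAA, the AP-1 site TGANTCA and the CCAAT box CCAAT. No matches in these 4 stretches overlapped.
Gja1, chr10:56377050-56377299, plus strand: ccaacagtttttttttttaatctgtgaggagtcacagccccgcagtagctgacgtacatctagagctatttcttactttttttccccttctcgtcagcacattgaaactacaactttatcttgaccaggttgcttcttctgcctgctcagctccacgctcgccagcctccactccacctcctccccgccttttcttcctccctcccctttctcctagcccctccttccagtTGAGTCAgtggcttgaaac
Gjb2, chr14:57104703-57104952, minus strand: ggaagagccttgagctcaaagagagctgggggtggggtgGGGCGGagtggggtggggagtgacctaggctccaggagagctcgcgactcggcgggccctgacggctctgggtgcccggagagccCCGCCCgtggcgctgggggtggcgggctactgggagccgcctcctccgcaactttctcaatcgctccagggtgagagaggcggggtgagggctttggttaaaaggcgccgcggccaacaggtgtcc
Gjb6, chr14:57133612-57133861, minus strand: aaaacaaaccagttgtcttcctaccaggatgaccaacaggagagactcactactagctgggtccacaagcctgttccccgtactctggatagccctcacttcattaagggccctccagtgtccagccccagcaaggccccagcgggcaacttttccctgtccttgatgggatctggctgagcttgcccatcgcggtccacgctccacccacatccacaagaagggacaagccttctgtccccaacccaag
Gjb5, chr4:127358165-127358414, minus strand: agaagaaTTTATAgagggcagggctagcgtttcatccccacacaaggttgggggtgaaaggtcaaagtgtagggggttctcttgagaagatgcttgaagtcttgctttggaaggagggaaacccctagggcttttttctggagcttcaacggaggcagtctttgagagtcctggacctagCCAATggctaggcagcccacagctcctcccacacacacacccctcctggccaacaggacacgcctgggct

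The Gjb2 stretch was the richest in CG dinucleotides of the 4, with 18, against 6 for Gja1, 5 for Gjb6 and 3 for Gjb5. The median over the 32851 RefSeq start sites was 6, and 21.7% of them had at least as many as Gjb2. Its share of G and C was 69.2%, against 56.8% for Gjb6, 54.4% for Gjb5, 50% for Gja1 and a median of 52.4% over all starts. Gjb2 held 2 GC boxes, beginning 211 and 126 bases before the start, and 32.7% of all stretches of this length held at least 1. Gja1 held 1 AP-1 site, beginning 19 bases before the start, a motif found in 6.75% of all stretches. Gjb5 held a TATA box beginning 243 bases before the start, farther away than a TATA box that sets a start would lie, and a CCAAT box beginning 70 bases before it. These motifs occurred in 12.4% and 33.8% of all stretches. None of the 4 motifs was found in the Gjb6 stretch. A match describes these letters only, and no binding was measured.

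Levels are log2 intensities, means with the SD over n = 2 arrays. The connexins were not ranked by level because probes bind with different strength. The background limits and the summed intensities given below do pool probe sets of different genes, so they share this weakness. A gene was counted as above background where it passed, on both arrays, the 95th percentile of 1035 olfactory receptor probe sets, which was 7.15 on replicate 1 and 7.17 on replicate 2. A stricter limit came from 30 probe sets of tissue-restricted genes such as albumin and growth hormone (8.28 and 8.33). Of the 7 members, 4 exceeded the olfactory receptor limit on each array (Gja1, Gjb2, Gjb5 and Gjc1) and 3 below it on both (Gja4, Gja5 and Gjb6), where 67.3% of all named genes lay above it. Above the stricter limit on both arrays lay 2 members, Gja1 and Gjc1, against 47.7% of all named genes. Gjb2 and Gjb5 passed it on replicate 2 only. In a culture measured as a whole, fewer cells of a type and less RNA per cell cannot be told apart.

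**Figure D1:**
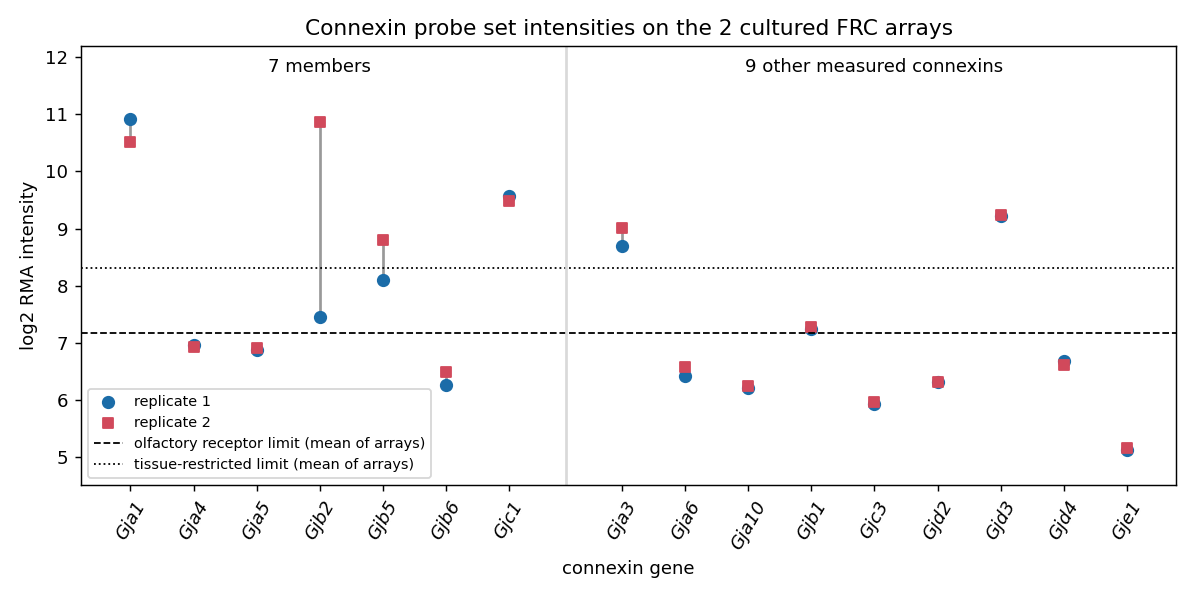
Log2 RMA intensity (vertical axis) of the 7 connexin members and the 9 other measured connexins on replicate 1 (circles) and replicate 2 (squares), a grey line joining the arrays of a gene. The dashed and dotted lines are the olfactory receptor and tissue-restricted limits, each drawn at the mean of its values on the arrays (7.16 and 8.31). Gjb2 alone spans a wide range, from 7.45 to 10.86, and Gja4, Gja5 and Gjb6 lie under the dashed line on both arrays.

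Gja1, the gene of connexin 43, gave a log2 intensity of 10.92 on replicate 1 and 10.52 on replicate 2 (mean 10.72 ± 0.28). Both arrays stood well clear of background, by 3.77 and 3.35 log2 units over the olfactory receptor limit and by 2.64 and 2.19 over the tissue-restricted limit. Replicate 1 was the brighter, by 1.31-fold. Of the 13577 genes whose mean lay above the mean limit, 9.63% differed more between the arrays than Gja1 did, in either direction.

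Gjc1, which encodes connexin 45, was at 9.58 and 9.48 (mean 9.53 ± 0.07), above both limits on each array. Its arrays were close together, with a 1.07-fold difference. Its absolute difference of 0.10 was about that of the median gene, 0.11 over the 13577 genes.

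Gjb2, which encodes connexin 26, was at 7.45 on replicate 1 and 10.86 on replicate 2 (mean 9.15 ± 2.41). Replicate 1 exceeded the olfactory receptor limit by only 0.30 log2 units, and 97.0% of the olfactory receptor probe sets lay below it, whereas replicate 2 exceeded every olfactory receptor probe set and passed the tissue-restricted limit by 2.53. The measured ratio was 10.6-fold in favour of replicate 2. With replicate 1 set to the tissue-restricted limit, under which it lay, the ratio was at least 5.98-fold. This was the second largest difference in favour of replicate 2 among the 13577 genes, after that of Prelp, and 2 genes differed more in either direction. It rests on 1 array a side, so its mean describes neither array.

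Gjb5, which encodes connexin 31.1, was at 8.10 on replicate 1 and 8.80 on replicate 2 (mean 8.45 ± 0.50). It lay over the olfactory receptor limit on both arrays, by 0.95 and 1.62 log2 units, and straddled the tissue-restricted limit, under it by 0.18 on replicate 1 and over it by 0.47 on replicate 2. Replicate 2 was brighter by 1.63-fold as measured and by at least 1.43-fold with replicate 1 set to the stricter limit. A larger difference in either direction was found in 3.18% of the genes.

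The endothelial connexins were at background. Gja4 (connexin 37) was at 6.96 and 6.93, and Gja5 (connexin 40) at 6.87 and 6.90, each under the olfactory receptor limit on both arrays. Between 91.8% and 92.9% of the olfactory receptor probe sets lay below these 4 values, so they stood in the upper part of the background range without passing the limit. Gjb6 (connexin 30) was also under the limit on both arrays, at 6.26 and 6.49, with 77.4% and 83.2% of the olfactory receptor probe sets below it. No ratio between the arrays is given for these 3 genes because both arrays were below the limit. A value below the limit does not show that a transcript is absent.

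Markers of the cells in which these connexins are best known were measured beside them, and their part in the connexin values was not tested. Each count below is of genes over a limit on both arrays, and the shares over all named genes were 67.3% for the first limit and 47.7% for the stricter one. Of the 30 tissue-restricted genes, 12 passed the first limit. The summed intensities include genes below the limits. Of 13 blood endothelial markers, 8 passed the olfactory receptor limit and 0 the stricter one. Their summed intensity was 2283 on replicate 1 and 2431 on replicate 2. Pecam1 (7.22 and 7.13), Cdh5 (8.05 and 7.53), Kdr (7.31 and 7.27) and Tek (6.93 and 7.68) were under the stricter limit on both arrays. Emcn (7.64 and 8.40) passed it on replicate 2 only. The lymphatic endothelial list had 1 of 5 markers over the first limit, Flt4, and 0 over the second, with a summed intensity of 693.4 and 608.1. Flt4 (8.41 and 7.79) passed the second limit on replicate 1 only. Among 12 keratinocyte and epithelial markers, 7 passed the first limit and 1 the second, Krt8, with a summed intensity of 1961 and 1976. Their differences between the arrays ran from -0.68 in Perp to 0.45 in Ivl, with Krt5 at 7.34 and 7.42 and Krt14 at 7.37 and 7.57, and Epcam (6.65 and 6.64), Dsg3 and Lor were below the first limit on both arrays. Of 7 mural and smooth muscle markers, 6 passed the first limit and 4 the second, with a summed intensity of 9528 and 10521. Among them, Myh11, the smooth muscle myosin gene, was at 9.45 and 9.91 and Mcam at 12.84 and 12.72, both above the stricter limit. All 5 cardiac and skeletal muscle markers passed the first limit and 1 the second, with a summed intensity of 1394 and 1907. That 1 was Des, the desmin gene, at 9.09 and 10.11, a 2.03-fold difference. Myh6, Nppa, Myod1 and Ckm were under the stricter limit on both arrays. Their differences were -0.07, 0.03, -0.27 and -0.01 log2 units, so the higher sum on replicate 2 came from Des. Glial markers (2 of 4 above the first limit, 0 above the second) had a summed intensity of 703.5 and 700.5, and mesothelial markers (3 of 4 and 0) of 896.9 and 839.9. The mesothelial marker Wt1 (8.29 and 8.08) passed the second limit on replicate 1 only.

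In the rest of the family fewer genes were above the limit than below it. Of the 9 other connexins measured, 3 exceeded the olfactory receptor limit on each array. Gja3, the lens connexin 46, was at 8.70 and 9.00 and Gjd3, connexin 30.2, at 9.23 on both arrays, and these 2 genes passed the tissue-restricted limit as well. Gjb1, the liver and Schwann cell connexin 32, passed the first limit narrowly, at 7.24 and 7.28, and not the second. The other 6 (Gja6, Gja10, Gjc3, Gjd2, Gjd4 and Gje1) were between 5.12 and 6.68 on single arrays, under both limits. Over the measured family, 7 of 16 connexins (43.8%) passed the first limit and 4 the second, where 67.3% and 47.7% of all named genes did.

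The 2 arrays were then set against each other within the family. The arrays differed 2-fold or more in 1 connexin, Gjb2, of the 7 whose mean lay above the mean limit, where 1.41% of all 13577 such genes differed as much in either direction. At 1.5-fold there were 2, Gjb2 and Gjb5, against 4.77% of all genes. Because Gjb2 was listed with its difference known, nothing is read from these shares. The directions were mixed. Gjb2 and Gjb5 were brighter on replicate 2 and Gja1 and Gjc1 on replicate 1, and 51.2% of the 13577 genes were brighter on replicate 2 by any amount. The 9 other connexins differed by at most 0.30 log2 units, in Gja3.

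**Figure D2:**
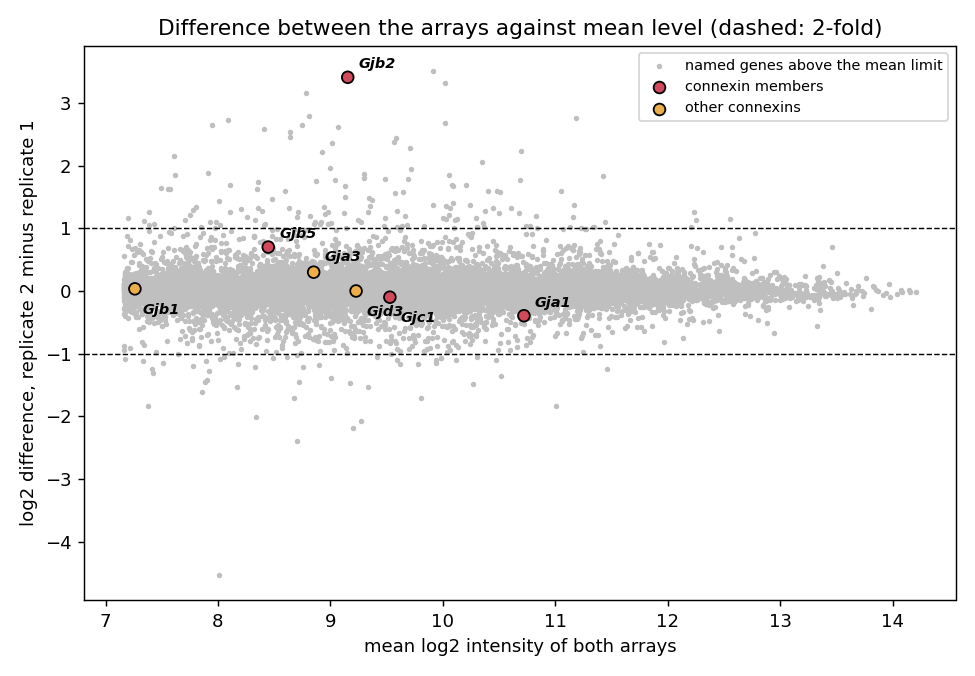
Log2 difference between the arrays, replicate 2 minus replicate 1 (vertical axis), against the mean log2 intensity (horizontal axis) for the 13577 genes above the mean limit (grey), with connexin members in red and other connexins in yellow. Dashed lines mark a 2-fold difference, and of the connexins only Gjb2, at 3.41, lies beyond one.

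The connexin genes lie in part in clusters, and neighbours of Gjb2 did not share the size of its difference. On chromosome 14, RefSeq places Gja3, Gjb2 and Gjb6 next to each other, and replicate 2 exceeded replicate 1 by 0.30 in Gja3 and by 3.41 in Gjb2, while Gjb6 was at background on both arrays. The next genes past Gjb6 were Cryl1, a crystallin-related dehydrogenase gene (8.66 and 9.25), Ift88, a gene of cilium transport (8.42 and 8.37), and Il17d (8.54 and 8.91). Their differences were 0.59, -0.05 and 0.38 log2 units, so Cryl1 and Il17d were also higher on replicate 2. Past Gja3 the nearest gene with a probe set of its own was Zmym2 (11.35 and 11.12, a difference of -0.23). On chromosome 4, Gja4 and Gjb5 lie in a second cluster. Gjb5 was above the first limit and Gja4 was not. The flanking genes Tmem35b, Dlgap3, CK137956 and Csmd2 differed between the arrays by 0.25, -0.04, -0.08 and 0.07 log2 units, against 0.70 for Gjb5. The neighbours were looked up after the values of the connexins were known.

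**Figure D3:**
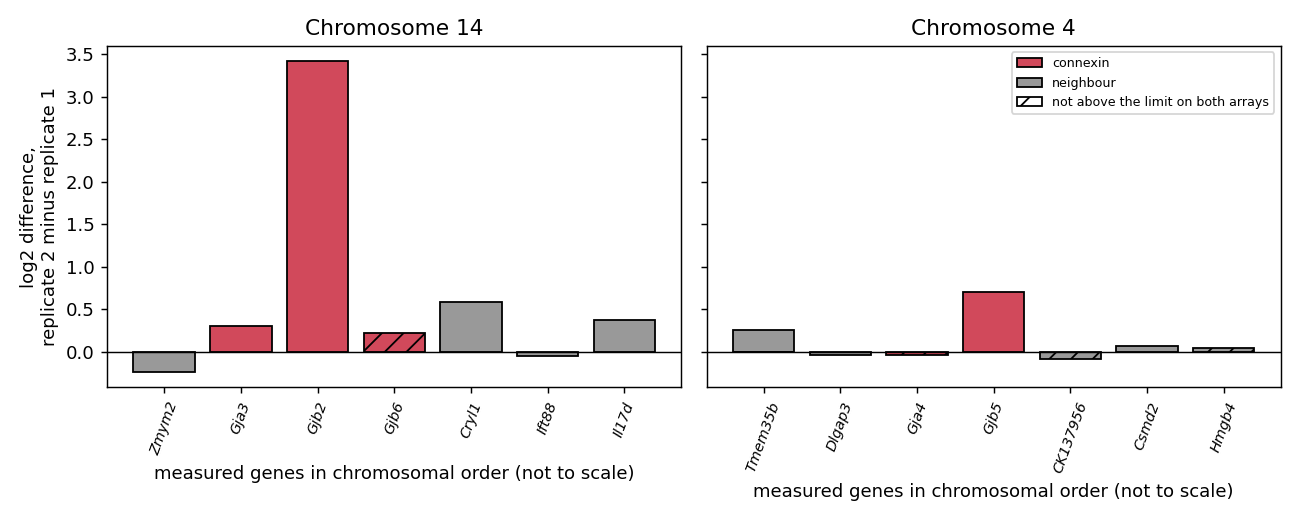
Log2 difference between the arrays, replicate 2 minus replicate 1 (vertical axis), for protein-coding genes with a probe set of their own, in RefSeq order along the connexin clusters of chromosomes 14 (left) and 4 (right), connexins in red and neighbours in grey. Hatched bars are genes not over the olfactory receptor limit on both arrays, and spacing is not to scale. Gjb2 reaches 3.41, while no other gene shown exceeds the 0.70 of Gjb5.

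Pannexins, which form membrane channels without docking to another cell, were measured beside the connexins. Panx1 was at 9.07 and 9.24 and Panx2 at 8.55 and 8.54, above both limits on each array. Panx3 (6.54 and 6.45) was below them. The difference between the arrays was at most 0.17 log2 units in these genes.

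Genes whose products bind, move, remove, phosphorylate or transcribe connexins were measured in 5 groups. Of 46 listed, 42 had a probe set of their own, 40 exceeded the olfactory receptor limit on each array, where 67.3% of all named genes did, and 37 the tissue-restricted limit, where 47.7% did. A 2-fold difference was found in 1 of the 41 above the mean limit, against 1.41% of all such genes. For 18 of them the value was higher on replicate 2, as it was for 51.2% of all such genes, and for 23 on replicate 1.

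All 10 measured scaffold and adhesion genes passed the first limit and 9 the second. Tjp1, the gene of ZO-1, which binds the tail of connexin 43, was at 10.67 and 10.45. The cadherin gene Cdh2 was at 12.98 and 12.83, and Cav1, which encodes caveolin-1, at 12.78 and 13.04. Ccn3, whose secreted product also binds connexin 43, was the partner gene with a difference over 2-fold. It was at 7.41 on replicate 1, close to background, and at 9.87 on replicate 2, a ratio of 5.47-fold as measured and of at least 3.0-fold against the tissue-restricted limit. Its arrays were placed as those of Gjb2 were, low on replicate 1 and clear of both limits on replicate 2, while Gja1, whose protein it binds, was slightly lower on replicate 2. The largest difference the other way in this group was that of Ezr, which encodes the membrane linker ezrin (9.64 and 8.89). The group's median difference was -0.07, against 0.0046 over all 13577 genes.

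Transport and assembly genes (6 of 6 above both limits) had a median difference of 0.02, with the extremes in Erp29, an endoplasmic reticulum chaperone gene (9.86 and 10.05), and the kinesin gene Kif5b (12.28 and 12.26). Genes for removal from the membrane (8 of 8 above the first limit, 7 above the second) had a median of 0.01. Within them the ubiquitin ligase gene Nedd4 was at 13.30 and 13.33, Smurf2 had the largest difference in favour of replicate 1 (11.30 and 11.06) and the endocytic adaptor Dab2 the largest in favour of replicate 2 (7.63 and 7.80).

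The connexin kinase genes (8 of 8 above both limits) had a median of -0.09. Src, whose product closes connexin 43 channels, was at 10.68 and 10.31, and the extremes were Cdk1 (11.15 and 10.46), the mitotic kinase, and Prkca (10.69 and 10.86), a protein kinase C. Of 10 transcription factor genes known to act on connexin promoters, 8 lay above the first limit and 7 above the second. The AP-1 genes Jun (11.52 and 11.35) and Fos (8.31 and 8.73) and the GC box factors Sp1 (10.02 and 10.01) and Sp3 (10.07 and 10.03) were among them. Tbx3, a repressor of connexin genes, was at 10.19 and 9.64, and Tbx5, an activator of Gja5 in the heart, at 7.44 and 8.18, these being the extremes of the group. Tfap2c was below the limit on both arrays and Tfap2a (7.34 and 7.01) on replicate 2.

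**Figure D4:**
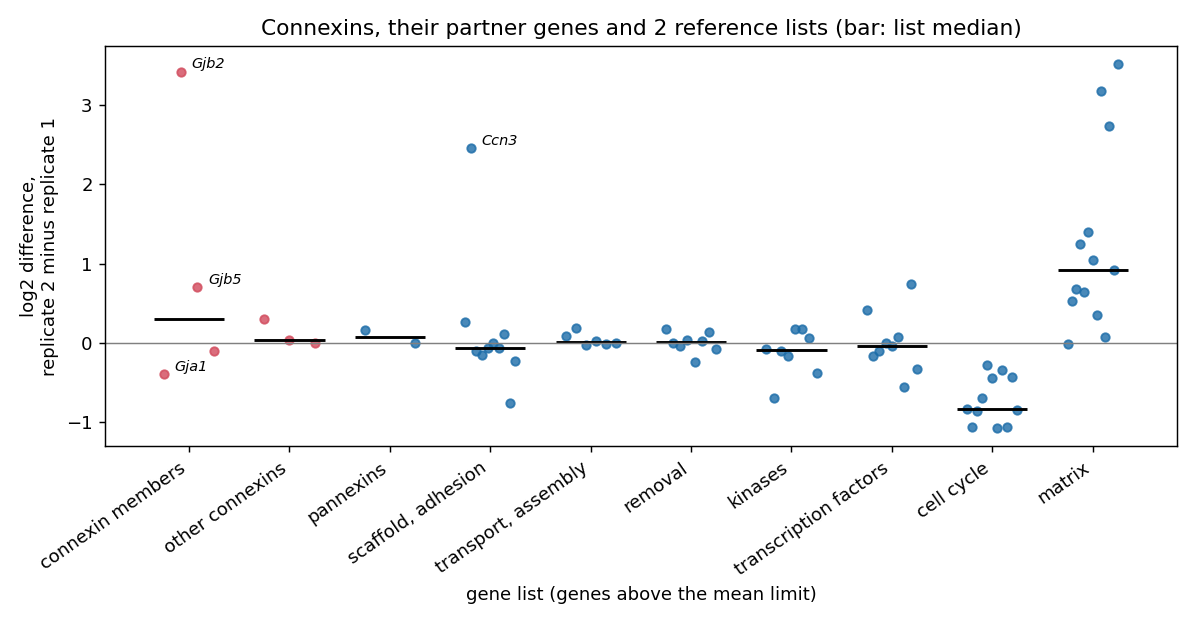
Log2 difference between the arrays, replicate 2 minus replicate 1 (vertical axis), for each gene above the mean limit in the connexin lists (red), the partner groups and pannexins, and the cell cycle and matrix lists (blue), with a bar at each list's median. Gjb2 at 3.41 and Ccn3 at 2.45 stand apart from their lists, the cell cycle genes all lie below 0, and 12 of 13 matrix genes lie above it. Of all 13577 genes above the mean limit, 51.2% lie above 0.

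Differences between the arrays were not limited to connexins. Among the 13577 genes above the mean limit, 1.41% differed 2-fold or more and 51.2% were higher on replicate 2. The lists below were chosen with earlier results of these data known, so nothing is read from their counts. All 11 measured cell cycle genes were lower on replicate 2 (median -0.83, Mki67 10.52 and 9.45), and 12 of 13 matrix genes above the mean limit were higher there (median 0.92, Col3a1 10.05 and 11.30). Rgs5, a pericyte gene of the mural list, was at 7.37 and 9.91, the only 2-fold difference in that list. Of the 6 mural genes above the mean limit, 5 were higher on replicate 2 and 1, Mcam, was lower (median 0.39). Kcnj8 was at 7.28 and 7.38, and Abcc9 was below the first limit on both arrays. The 12 matrix genes and Rgs5 moved in the direction of Gjb2, and the cell cycle genes the other way. The part of these genes in the Gjb2 difference was not tested. The 5 genes whose difference was nearest to that of Gjb2, over 2 arrays, were Cygb (3.32), Prelp (3.51), Fmod (3.17), Aoc3 (2.79) and Ccn5 (2.75), with gaps to Gjb2 of 0.09 to 0.66 log2 units. Cygb encodes cytoglobin, Prelp and Fmod small leucine-rich proteoglycans of the matrix, Aoc3 an amine oxidase and Ccn5 a matricellular protein. Likeness over a single pair of arrays says only that their differences were of similar size.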

How the data were processed

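RNA of 2 cultured FRC samples was measured on 1-colour microarrays. The deposited table gives 1 intensity per probe set on a linear scale, made by the authors with RMA (background correction, quantile normalisation and probe set summary) per the submitters' processing notes, without a version. RMA compresses differences at low signal and hides a change in total RNA. Median intensities were 286.0 and 285.7, and precision is limited by having 2 arrays.

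Log2 values were computed here (Python 3.11.15, numpy 2.4.6, pandas 2.3.3). Of 24679 probe sets, 21354 named 1 gene in the platform annotation, 1275 several and 2050 none, and only the first were used. Gene identifiers of 21277 were found in the RefSeq table of GRCm38.p6, and 0 symbols changed. Probe sets of a gene were averaged, which gave 19751 genes. With 1 group, no significance test was run. Differences are replicate 2 minus replicate 1 over genes whose mean exceeded the mean limit of 7.16. The 2-fold threshold was also tried on simulated data with planted differences and even noise. That trial does not show how reliable calls from a single pair of arrays are.

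The members and lists were chosen with earlier results of these data known. Named were all members, other connexins above the limit, list members below the limit where few, the extremes of each partner group, and the 5 genes nearest in difference to a member that differed 2-fold. Alternatives were other limits, other probe set choices, each array left out, quantile normalisation, a loess trend removed (span 0.3, statsmodels 0.14.6), other filters and a 1.5-fold threshold.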

Additional observations from a re-analysis of the deposited data

How the results depend on the processing

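With the limit taken from tissue-restricted genes, 4 measured connexins passed in place of 7, and 2 members in place of 4. At 1.5-fold, 2 connexins differed between the arrays in place of 1. Under the other percentiles of the olfactory receptor limit, the counts stayed within 1.5 times: at the 90th percentile 6 members passed, Gja4 and Gja5 being added, and at the 99th 3 members, Gjb2 being lost on replicate 1. With either array left out, 7 connexins and 4 members passed. The Gjb2 difference was 3.41 as deposited and between 3.40 and 3.41 under quantile normalisation and with the loess trend removed. RMA had already quantile normalised the deposited values, so repeating that step could change little in this difference. The probe set choices and the setting of arrays to their limit could not change it, since Gjb2 has 1 probe set and passes the limit on both arrays. The counts above the limit in the 5 partner groups stayed within 1.5 times under the 3 other limits. No paired analysis was possible because the series has 1 group. Signal near background limits Gjb2 on replicate 1 and the 3 members below the limit, and each difference rests on 1 array a side.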

Other observations

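Other channel and junction families were looked up after the connexin values were seen. The olfactory receptor limit was passed by 67.3% of all named genes and the tissue-restricted limit by 47.7%. All 5 LRRC8 genes, subunits of volume-regulated anion channels, exceeded the olfactory receptor limit on each array and 4 above the tissue-restricted limit, with Lrrc8a, the obligatory subunit, at 11.32 and 11.36 and Lrrc8c at 12.65 and 12.50 on replicates 1 and 2. Of 5 measured CALHM genes, a family of large-pore channels, 2 passed both limits, Calhm2 (9.62 and 9.79) and Calhm5 (10.19 and 10.75).

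Among desmosome genes, those above background encode proteins of the plaque on the inner side of the membrane. Of 11 measured desmosome genes, 6 passed the first limit, Dsp among them, and 5 the second, where 67.3% and 47.7% of all named genes did. These 5 were Jup (11.20 and 11.25), Pkp1 (9.38 and 8.70), Pkp2 (10.71 and 10.17), Pkp3 (8.41 and 8.40) and Pkp4 (10.65 and 10.40), while the desmosomal cadherin genes Dsc2, Dsc3, Dsg2, Dsg3 and Dsg4 were below the first limit on both arrays. Of 24 tight junction genes, 15 passed the first limit, a share near that of all named genes, and 5 the second, namely Cldn12 (11.92 and 11.32), F11r (10.49 and 9.61), Jam2 (12.21 and 12.67), Jam3 (9.27 and 9.46) and Cgnl1 (9.07 and 8.50). Occludin, Ocln (5.64 and 5.65), was at background.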
